A study of Mus musculus with 15 samples.

Results

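The Eif and Eef genes encode the protein factors that start and elongate protein synthesis on cytoplasmic ribosomes. RNA-seq of ventricles taken from mouse embryos at embryonic day 11.5 (E11.5) measured their messenger RNAs. The members are the protein-coding genes whose symbol begins with Eif or Eef. The eIF2 kinases (Eif2ak), the eIF4E-binding proteins (Eif4ebp), Eif2s1, Eif2s3y, Eef1e1 and pseudogenes were left out by that rule. This took 59 of the 78317 genes in the count tables. Of these, 58 passed the filter on low counts, among 20269 genes that were tested. The cap-binding gene Eif4e1b, known from oocytes, was the member that did not pass. It had 0 counts in all 15 libraries, which allows up to 0.133 CPM (normalised counts per library of equal size) in the shallowest of them, for counting error only.

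All embryos were C57BL/6 and all libraries carried batch label 1. In the CDS line, loxP sites flank exons 2 and 3 of Atf4, which hold its coding sequence, and the polyadenylation signal (PAS) is kept. In the PAS line, loxP sites flank that signal. Both lines were crossed with Xmlc2-Cre mice, which delete in cardiomyocytes, so the other cell types of the ventricle keep the gene. The groups were 4 CDS knockouts, 4 CDS controls, 4 PAS knockouts and 3 PAS controls, and the labels give the controls no further genotype. The design text calls the replicates biological and states 4 per genotype, while 3 PAS controls were analysed.

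Total counts ran from 22623499 to 46472141 per library, and the members held 1.69% to 1.86% of them. Atf4 counts were lower in the CDS knockouts than in their controls (log2 change -1.36 ± 0.05, SE) and higher in the libraries labelled PAS knockout than in theirs (1.56 ± 0.06). Exon counts cannot check the loss of the PAS itself, so groups are named here by their labels. Summed markers of choroid plexus (Ttr, Enpp2, Folr1) stood at 149 and 220.4 CPM in CDS knockouts 3 and 4, at 18.5 to 53.0 CPM in the other 6 CDS libraries and at 2.23 to 3.38 CPM in the PAS line. CDS knockout 3 stood apart. Its counts differed from those of the other CDS knockouts by a chi-square per degree of freedom of 50.8 to 64.0, against at most 13.9 in any other replicate pair. Identifiers with a name held 95.8% of its counts and 98.8% to 99.4% of those of the others. Without it, 0 members were called in any of the contrasts described below. The 5 cardiomyocyte markers summed to between 22866 and 27681 CPM in every library, and 0 of 5 were called in either line. In ventricle, fewer cells of a type and less RNA per cell cannot be told apart.

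Initiation begins when eIF2, loaded with GTP and the initiator tRNA, joins the small ribosomal subunit with eIF1, eIF1A and eIF3. The cap-binding complex eIF4F brings the messenger RNA, and the subunit scans to the start codon. eIF2B then exchanges the GDP on eIF2 for GTP, the step that phosphorylation of the eIF2 alpha subunit blocks in the integrated stress response. ATF4 is the transcription factor whose translation rises in that response. During elongation, eEF1A delivers aminoacyl-tRNAs and eEF2 moves the ribosome along by a codon. Many messages for ribosomal proteins and elongation factors begin with a run of pyrimidines, through which mTOR signalling controls their translation.

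RefSeq's promoter table (GRCm38.p6, from 250 bases before the annotated start to shortly after it) held an entry for 45 of the 59 members. The sequence upstream of Eif2s2 is shown because this gene, which encodes the beta subunit of eIF2, was the one member called in any contrast below. It spans chr2:154892907-154893156 on the minus strand and is written 5′ to 3′ towards the start.
Eif2s2: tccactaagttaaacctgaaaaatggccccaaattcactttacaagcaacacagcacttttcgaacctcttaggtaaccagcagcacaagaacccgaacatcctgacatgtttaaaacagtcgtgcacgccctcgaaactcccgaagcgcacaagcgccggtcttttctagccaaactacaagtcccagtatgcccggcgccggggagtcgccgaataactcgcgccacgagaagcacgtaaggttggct

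Elements known to bind ATF4 with a C/EBP partner, and the cAMP response element, were searched in these windows on both strands. The core TTGCATCA (TGATGCAA on the other strand), as in the Ddit3 element, was in 0 of the 45 member windows and in 1.03% of the windows of all 27025 genes. The core TTTCATCA (TGATGAAA), as in the Asns element, was in the windows of Eef2k and Eif2s3x and in 1.15% of all. The cAMP response element TGACGTCA, which reads the same on both strands, was in that of Eef2 and in 2.03% of all. The Eif2s2 window held none of them. The matches are shown in capitals, with 84 and 96 bases to the annotated start for Eef2k and Eif2s3x. The match in Eef2 begins 2 bases after the start.
Eef2k (chr7:120851094-120851123, plus strand): ctttctgcttgTTTCATCAagctcagcttg
Eif2s3x (chrX:94212729-94212758, minus strand): ttcgccatcatTTTCATCAggtctatgccg
Eef2 (chr10:81176622-81176651, plus strand): aggccgggcgtTGACGTCAgcggtctcttc

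A run of at least 8 pyrimidines (C or T, sense strand) lay over the annotated start of 5 of the 45 members, namely Eef1a1, Eif2b5, Eif2s3x, Eif3f and Eif3l. Over all genes the share was 4.59%. The windows of 4 of them are shown with the run in capitals. They include Eef1a1, the most abundant member, and Eif3f and Eif3l, whose values are given below. These letters are matches in annotated windows and were not tested for function.
Eef1a1 (chr9:78481705-78481734, minus strand): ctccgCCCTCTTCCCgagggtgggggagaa
Eif3f (chr7:108934405-108934434, plus strand): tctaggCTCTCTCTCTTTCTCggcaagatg
Eif3l (chr15:79075213-79075242, plus strand): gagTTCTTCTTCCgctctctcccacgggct
Eif2s3x (chrX:94212632-94212661, minus strand): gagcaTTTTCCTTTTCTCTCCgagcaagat

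The factors spanned more than 4 orders of magnitude in level, and elongation factors stood at the top. Levels of different genes are compared per length, as normalised CPM per kilobase of exon. In the CDS controls (n = 4), Eef1a1, which encodes the tRNA-delivering eEF1A1, stood at 2288 ± 114 (SD) and Eef2, the translocase, at 687 ± 26.1. Eif5a, whose hypusine-bearing product helps ribosomes through difficult peptide bonds, followed at 241 ± 5.26 and Eef1g, a subunit of the eEF1A exchange factor, at 218 ± 7.18. Eef1b2, the exchange subunit itself, stood at 145 ± 6.91. These 5 genes were separated from each other by more than their SDs.

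The first initiation factors in the order were Eif4g2, at 123 ± 2.45, and Eif3h, at 123 ± 5.83, which did not differ beyond their spread. Eif4g2 encodes an eIF4G relative that lacks the cap-binding contact, and Eif3h a subunit of eIF3. Eif4g1, the main eIF4F scaffold, followed at 103 ± 5.78 and was within its SDs of Eif4a1, the eIF4F helicase, at 96.6 ± 2.51. In all, 8 members stood above 100, 38 from 10 to 100, 10 from 1 to 10 and 3 below 1, Eif4e1b included. The lowest tested members were Eef1akmt3 at 0.0932 ± 0.0127, Eif3j2 at 0.216 ± 0.0630, Eef1akmt4 at 1.67 ± 0.185 and Eif4e3 at 2.204 ± 0.124. Exons of each of these genes overlap those of another annotated gene, and the counts use no strand. Reads in the shared stretches cannot be told apart, so these low levels are uncertain.

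Elongation factors held 55.5% of the member counts over all libraries, and Eef1a1 alone held 32.3%. eIF4 genes held 22.7% and eIF3 subunits 13.3%. Genes of eIF2, eIF2B and their helpers, with Eif5 included and Eif2s1 left out, held 4.82%. The eIF1, eIF1A, eIF5B and eIF6 genes held 3.29%. The enzymes that methylate or phosphorylate elongation factors held 0.382%. These shares of counts favour long transcripts. Per length, elongation factors held 68.6%, eIF3 subunits 12.3% and eIF4 genes 11.9%, so eIF4 did not stand above eIF3. The eIF2 group held 3.55%, the eIF1 group 3.02% and the enzymes 0.602% per length. eIF2B holds its subunits in equal numbers. Their messages per kilobase of annotated exon were not equal, from 29.8 ± 0.622 for Eif2b5 to 2.35 ± 0.215 for Eif2b3 in the CDS controls. These SDs are between libraries and do not cover any error in the exon lengths used.

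**Figure D1:**
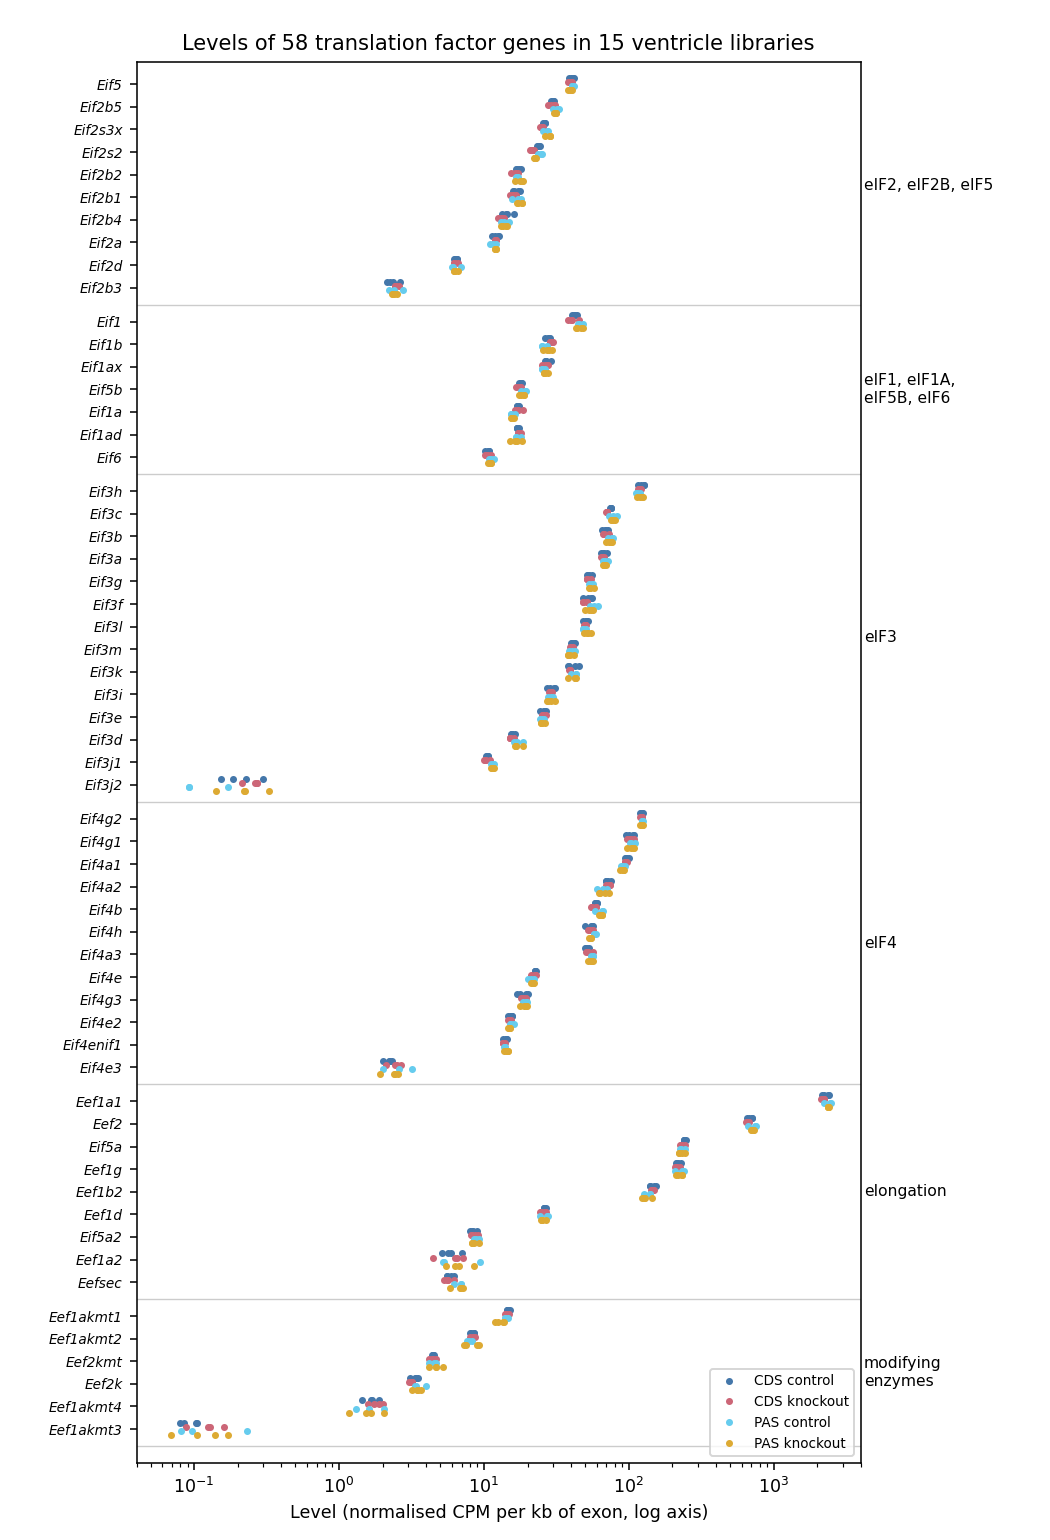
Levels of the 58 tested members, grouped by role. Each point is a library, and the horizontal log axis gives normalised CPM per kilobase of exon, with colours for the 4 groups. Eef1a1 stands near 2288 in the CDS controls and Eef1akmt3 near 0.0932, and for most genes the 4 groups lie on top of each other.

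Knockout against control was tested in each line, and as the mean of both changes, to see whether factor messages moved with either deletion. The answer was close to 0 for nearly all members. In the CDS line, 0 of 58 members were called by edgeR (quasi-likelihood, Benjamini-Hochberg adjusted p under 0.05), against 0.0543% of all genes tested. At an unadjusted p under 0.05 there were 3 members, against 2.62% of all genes. In the PAS line, 0 of 58 were called, against 0.00987%, and 4 had an unadjusted p under 0.05, against 5.24%, or 2 without PAS control 2 and 2 of 57 with the PAS groups fitted alone. DESeq2 called 1 member with the CDS deletion and 0 with the PAS deletion.

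The mean of both changes called 1 of 58 members, Eif2s2, which was lower in knockouts. This mean joins lines in which Atf4 counts themselves moved in opposite directions, as given above. Of all genes 0.0789% were called, or 0.0592% counting falls alone. At an unadjusted p under 0.05 there were 4 members, beside 3.7% of all genes, or 2 without PAS control 2 and 7 without PAS control 3. The difference between the changes of the lines called 0 members, beside 0.00493%, and 1 had an unadjusted p under 0.05, beside 4.16%. Leaving out 1 library moved that count to between 0, as without CDS knockout 2, and 4, without CDS control 3 or PAS control 1. The 95% interval of the change lay within 1.25-fold in either direction for 53 of 58 members with the CDS deletion and for 53 with the PAS deletion. Median log2 changes of the tested members were -0.02 with the CDS deletion and -0.01 with the PAS deletion, beside -0.001 over all genes in each line. The log2 change was negative for 44 of 58 members in the CDS line, where 50.6% of all genes were negative, and for 40 in the PAS line, where 50.6% were. These counts moved when 1 library was left out. In the CDS line 38 were negative without CDS knockout 3 and 38 without CDS control 1. For the PAS deletion 28 were negative without PAS control 2, 31 without PAS control 1 and 32 without PAS knockout 2, beside 49.9% to 51.9% of all genes.

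**Figure D2:**
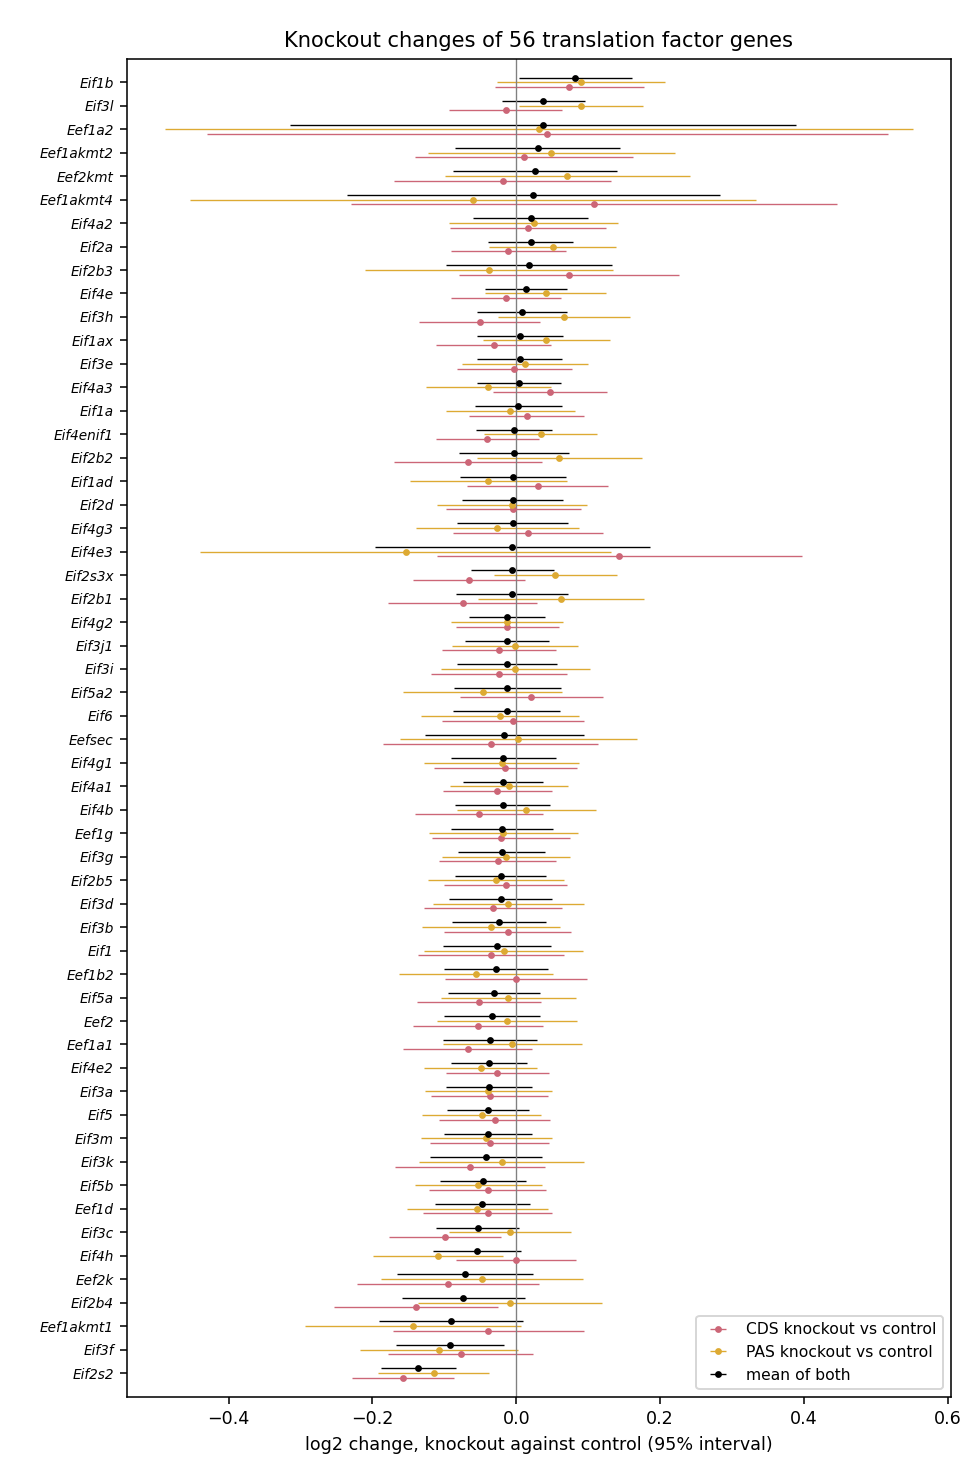
Log2 changes of 56 members with 95% intervals, for the CDS line, the PAS line and their mean, ordered by the mean. Eif3j2 and Eef1akmt3 are not drawn because their counts are low and their intervals wide. Eif2s2 is at the bottom, with a mean change of -0.14, and most intervals cross 0.

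Eif2s2 (ENSMUSG00000074656.14, chr2:154713330-154734855, minus strand, GRCm39) encodes eIF2 beta, the subunit that contacts eIF5 and eIF2B. In the CDS line its level was 161, 165, 158 and 161 CPM in controls 1 to 4 and 141, 144, 143 and 149.7 CPM in the knockouts. For the PAS embryos it was 166, 159.5 and 169.5 CPM in the controls and 151, 152, 155 and 153 CPM in the knockouts. Every knockout was below every control of its own line. The exons of Eif2s2 overlap those of no other annotated gene.

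Markers of the ventricle's cell types were summed beside this result, and 0 of any list were called. The 5 endothelial markers summed to 1183 to 1230 CPM in CDS controls and 1086 to 1153 CPM in CDS knockouts, which did not overlap, with 0 of 5 positive and 0 called. For the PAS embryos the sums were 1062 to 1219 CPM in controls and 1148 to 1233 CPM in knockouts, with 5 of 5 positive and 0 called. Of the 5 cardiomyocyte markers 0 were positive in the CDS line, 1 with the PAS deletion and 0 in the mean of both. They summed to 25262 to 27681 CPM in CDS controls and 22866 to 26172 CPM in CDS knockouts. With the PAS deletion the sums were 25873 to 27433 CPM in controls and 26101 to 26684 CPM in knockouts. The cardiomyocyte sums overlapped between knockouts and controls in both lines.

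The 6 erythroid markers summed to 1792 to 3908 CPM in CDS controls, 1567 to 4270 CPM in CDS knockouts, 1282 to 3434 CPM in PAS controls and 1136 to 2249 CPM in PAS knockouts. Of these, 2 of 6 were positive with the CDS deletion, 0 of 6 with the PAS deletion and 0 of 6 in the mean of both. Mesenchyme markers were positive for 4 of 4 with the CDS deletion and 0 of 4 with the PAS deletion. They summed to 2508 to 3030 CPM in CDS controls, 2738 to 3251 CPM in CDS knockouts, 3006 to 3304 CPM in PAS controls and 2731 to 3254 CPM in PAS knockouts. Neuron markers, positive for 4 of 4 and 1 of 4, summed to 24.4 to 32.6, 29.4 to 42.0, 28.8 to 33.7 and 28.2 to 30.4 CPM in the same order of groups. Epicardial markers were positive for 0 of 4 and 3 of 4 and leukocyte markers for 1 of 4 and 1 of 4. Choroid plexus markers were positive for 3 of 3 and 1 of 3, and the tested liver markers for 2 of 2 and 1 of 2. The liver list (Alb, Afp, Ttr and Apoa1) shares Ttr with the choroid plexus list, so their sums are not independent. Liver markers summed to 11.8 to 35.5 CPM in CDS controls, 14.2 to 156 CPM in CDS knockouts and at most 1.60 CPM in the PAS line. None of these markers was at 0 in all libraries. The sums of erythroid, mesenchyme and neuron markers overlapped between knockouts and controls in both lines. The part of these markers in the Eif2s2 result was not tested.

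The mean log2 change of Eif2s2 over both lines was -0.14 ± 0.03 (SE), so that the level fell by 9.01% (edgeR adjusted p = 0.0256). Within a line the change was -0.16 ± 0.03 in the CDS line (adjusted p = 0.133) and -0.11 ± 0.04 in the PAS line (adjusted p = 0.934), and neither passed. The changes of the lines differed by 0.04 ± 0.05 (adjusted p = 0.995). DESeq2 called Eif2s2 in the CDS line as well (adjusted p = 0.000818, with a range of 0.000818 to 0.686 over the alternatives for that line). For the mean over both lines the range was 9.73e-06, by DESeq2, to 0.109. Falls of the same kind, with every knockout below every control in both lines, were seen in 1 of 58 members and in 0.0937% of all genes.

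The size of the Eif2s2 change held, at -0.15 to -0.13 over the alternatives, but its call was near the threshold. It was lost on leaving out any one of 10 libraries. The edgeR adjusted p was 0.105, 0.0806 and 0.0568 without CDS knockouts 1, 2 and 3, and 0.0589, 0.0629 and 0.0660 without CDS controls 1, 2 and 4. It was 0.0694 and 0.0837 without PAS knockouts 1 and 4, and 0.109 and 0.0945 without PAS controls 1 and 3. Leaving out any one of the other 5 kept it, at 0.0211 to 0.0488. Without CDS knockouts 3 and 4, which had the most choroid plexus marker RNA, the change was -0.14 and the adjusted p 0.0856. A block for the replicate number gave 0.0900, and no filter on low counts gave 0.0519.

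eIF2 is a trimer, and the genes of its alpha and gamma subunits did not pass the test. Eif2s1, the alpha subunit and not a member, stood at 113 ± 3.38 CPM (SD, n = 4) in CDS controls and 112 ± 3.92 in CDS knockouts. In the PAS line it was 110.0 ± 3.06 in controls (n = 3) and 109 ± 4.71 in knockouts (n = 4). The groups overlapped in both lines, and the 95% interval of the mean log2 change ran from -0.07 to 0.05.

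Eif2s3x (chrX:93232313-93256468, minus strand, GRCm39), the gamma subunit, stood at 99.7, 100.5, 97.1 and 101 CPM in CDS controls and at 96.3, 92.7, 94.8 and 96.96 CPM in CDS knockouts. These groups just did not overlap (log2 change -0.07 ± 0.04, unadjusted p = 0.0932). For the PAS embryos the controls were at 103, 106 and 97.4 CPM and the knockouts at 108, 109, 108 and 100.1 CPM, and these overlapped (0.05 ± 0.04). The difference between the changes of the lines was 0.12 ± 0.06. It had the smallest unadjusted p of the members in that contrast (0.0416, edgeR adjusted p = 0.995). Eif2s3x is X-linked, and the fits took no account of embryo sex.

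**Figure D3:**
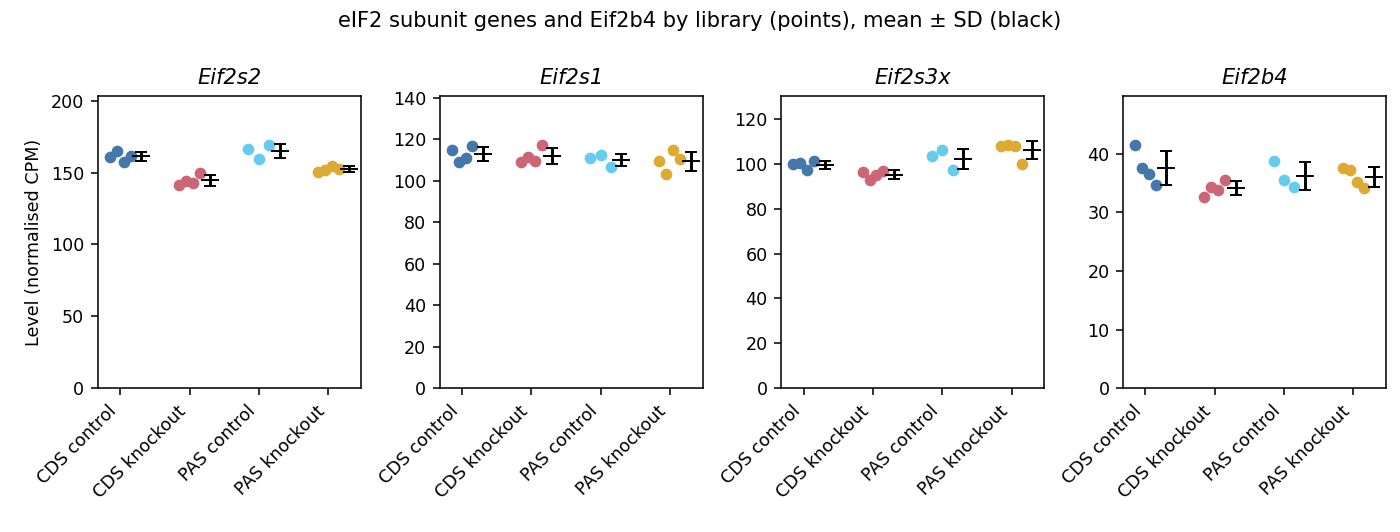
Levels of the eIF2 subunit genes Eif2s2, Eif2s1 and Eif2s3x and of the eIF2B gene Eif2b4, in normalised CPM from 0. Points are libraries and black marks give the mean ± SD. The Eif2s2 knockouts, at 141 to 155, lie below all controls, at 158 to 169.5, while Eif2s1 overlaps in both lines.

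Among the 10 genes of eIF2, eIF2B and their helpers, 1 was called lower in the mean of both changes, Eif2s2, and 0 in either line alone. Their median log2 change was -0.05 with the CDS deletion and -0.01 with the PAS deletion. Eif2b4 (chr5:31344902-31350774, minus strand, GRCm39), the delta subunit of eIF2B, stood at 41.6, 37.6, 36.6 and 34.8 CPM in CDS controls and 32.7, 34.4, 33.9 and 35.6 CPM in CDS knockouts. The groups overlapped (log2 change -0.14 ± 0.06, unadjusted p = 0.0190). Among PAS libraries Eif2b4 was at -0.01 ± 0.06. Its exons overlap those of Snx17 on the opposite strand, and the counts use no strand, so reads of the pair cannot be told apart.

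Eif2b1, the alpha subunit, had a log2 change of -0.07 ± 0.05 with the CDS deletion and 0.06 ± 0.06 with the PAS deletion. The difference of 0.14 ± 0.08 did not pass (unadjusted p = 0.0824). The most abundant gene of the group was Eif5, which encodes the GTPase activator of eIF2. It stood at 40.2 ± 1.22 per kilobase in CDS controls and 39.4 ± 1.27 in CDS knockouts.

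The 14 eIF3 genes encode the large scaffold that holds the small subunit and the messenger RNA together, and 0 were called in any contrast. Eif3c (chr7:126145627-126165583, minus strand, GRCm39), a core subunit, came closest in the CDS line. Its controls stood at 266, 265, 260.3 and 266 CPM and its knockouts at 247, 247, 245 and 249 CPM. The groups did not overlap (log2 change -0.10 ± 0.04, unadjusted p = 0.0149), but the adjusted p was 1.00. For the PAS embryos the controls were at 274, 290.2 and 257 CPM, the knockouts at 282, 264, 270.1 and 272 CPM, and the groups overlapped. An unnamed gene lies on the opposite strand of Eif3c exons.

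Eif3f, a subunit with an MPN domain, was at -0.08 ± 0.05 with the CDS deletion and -0.11 ± 0.05 with the PAS deletion. The mean was -0.09 ± 0.04 (unadjusted p = 0.0176, edgeR adjusted p = 1.00). Its values overlapped between groups in both lines. Eif3l was at -0.01 ± 0.04 with the CDS deletion and 0.09 ± 0.04 with the PAS deletion, and Eif3h at -0.05 ± 0.04 and 0.07 ± 0.04. The differences between lines, 0.11 ± 0.06 and 0.12 ± 0.06, did not pass.

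Eif3j2 had the largest log2 change of the members in the PAS line, 0.94 ± 0.39 (unadjusted p = 0.0243). It rested on 11, 5 and 5 counts in the controls and 14, 15, 8 and 23 in the knockouts. The groups overlapped. Eif3j2 is a near-identical copy of Eif3j1, so its few reads are uncertain.

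In CDS knockouts 3 members were lower in every knockout than in every control, Eif2s2, Eif3c and Eif2s3x, where 1.32% of all genes were so. In the PAS line there were also 3, Eif2s2, Eif4h and Eef1akmt1, where 2.38% of all genes were so. No member was higher in every knockout in either line, beside 1.48% of all genes with the CDS deletion and 2.21% with the PAS deletion. The lists shared Eif2s2 alone.

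Of the 12 tested eIF4 genes 0 were called in any contrast. Eif4h (chr5:134648575-134668344, minus strand, GRCm39), a cofactor of the eIF4A helicase, stood at 319, 329.7 and 320.5 CPM in PAS controls and 297, 292, 304 and 305 CPM in PAS knockouts. The groups did not overlap (log2 change -0.11 ± 0.04, unadjusted p = 0.0210, edgeR adjusted p = 0.934). In the CDS line the groups overlapped, at 307, 279, 315 and 306 CPM in controls and 298, 307, 288 and 313 CPM in knockouts. The change there was -0.001 ± 0.04, and the difference between lines, -0.11 ± 0.06, did not pass.

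Of the 9 genes of the elongation group 0 were called. Eef1a1 stood at 5864, 6006, 5373 and 5573 CPM in CDS controls and 5521, 5270, 5529 and 5455 CPM in CDS knockouts, and the groups overlapped. Its log2 change was -0.07 ± 0.04 with the CDS deletion and -0.01 ± 0.05 with the PAS deletion. Eef2 was at -0.05 ± 0.04 and -0.01 ± 0.05. The intervals of both genes exclude a change of 1.25-fold in either line.

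Of the 6 enzymes that act on elongation factors 0 were called. Eef1akmt1, a lysine methyltransferase of eEF1A, stood at 13.97, 13.2 and 13.3 CPM in PAS controls and 12.9, 11.9, 11.2 and 12.8 CPM in PAS knockouts. The groups did not overlap, but the change of -0.14 ± 0.07 did not pass (unadjusted p = 0.0610). Eef2k, the kinase that inhibits eEF2, was at -0.09 ± 0.06 with the CDS deletion and -0.05 ± 0.07 with the PAS deletion.

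Of the 7 genes for start codon choice and subunit joining 0 were called. Eif1b, a paralogue of the start codon gatekeeper Eif1, had a mean log2 change of 0.08 ± 0.04 (unadjusted p = 0.0405, edgeR adjusted p = 1.00). It was positive in both lines, 0.07 ± 0.05 and 0.09 ± 0.06, and the groups overlapped. Eif1 itself was at -0.04 ± 0.05 and -0.02 ± 0.05.

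Several factors exist as pairs of paralogues, and the share of each pair per length held by the rarer gene does not depend on library scaling. There were 14 two-sided exact permutation tests. The smallest p that the group sizes allow is 0.0286, which alone adjusts to 0.400 over 14 tests, so no single share could pass and the values are given as a description. Eef1a2, the form of adult muscle and neurons, held 0.261 ± 0.0482% of its pair with Eef1a1 in CDS controls (SD, n = 4) and 0.280 ± 0.0555% in CDS knockouts. Eif5a2 held 3.37 ± 0.191% and 3.54 ± 0.0938% of its pair with Eif5a. Both shares overlapped between groups.

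Eif4a2 and Eif4a1, which encode the eIF4A helicases, were near parity, with 42.6 ± 1.62% for Eif4a2 in CDS controls and 43.3 ± 0.748% in CDS knockouts. Eif4g3 held 15.3 ± 0.410% and 15.6 ± 0.519% of its pair with Eif4g1. Eif1b held 39.6 ± 1.10% and 41.5 ± 1.67% of its pair with Eif1 in the CDS line, and 36.0 ± 1.71% and 37.8 ± 2.68% in the PAS line.

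Eif4e2, a cap-binding protein that represses translation, held 42.4 ± 1.28% of its pair with Eif4e in PAS controls (n = 3) and 40.9 ± 0.0581% in PAS knockouts (n = 4). The groups barely failed to overlap, since the highest knockout and the lowest control were both at 40.9%. The exact permutation p was 0.0286, the smallest possible. In the CDS line the shares were 40.3 ± 0.536% and 40.2 ± 0.776%. Eif3j2, with its few counts, held 1.02 ± 0.368% of its pair with Eif3j1 in PAS controls and 1.97 ± 0.653% in PAS knockouts. The exact permutation p was 0.0857, and the groups overlapped. In the CDS line the Eif3j2 shares were 2.01 ± 0.582% in controls and 2.41 ± 0.339% in knockouts, and these overlapped too.

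**Figure D4:**
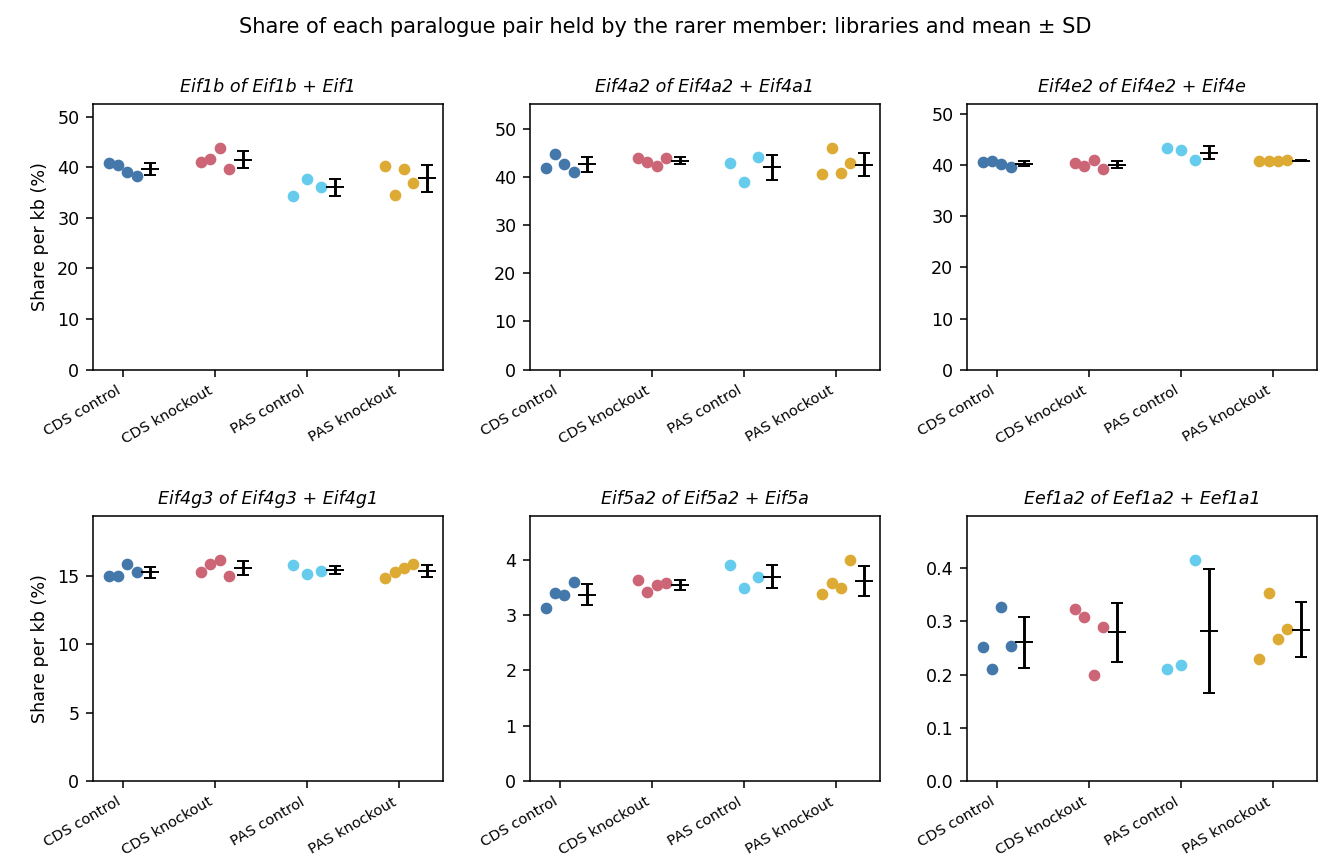
Share of 6 paralogue pairs per kilobase held by the rarer gene, in percent from 0. The pair of Eif3j2 and Eif3j1 is not drawn. Points are libraries and black marks give the mean ± SD in each group. Eif4a2, Eif4e2 and Eif1b hold about 36.0% to 43.3% of their pairs, Eef1a2 under 0.5%, and knockouts and controls overlap in nearly all panels.

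The controls were also compared between the lines, as a background difference. PAS controls against CDS controls gave 0 called of 58 members, beside 0.143% of all genes, with 15 members at an unadjusted p under 0.05, beside 9.6% of all genes. That count was 8 without PAS control 2 and 8 of 57 with these groups fitted alone. The smallest p among members belonged to Eif4a3, the helicase of the exon junction complex. It stood at 112, 106, 107 and 109 CPM in CDS controls and 120.4, 120.0 and 116 CPM in PAS controls. The groups did not overlap (log2 difference 0.13 ± 0.04, edgeR adjusted p = 0.279).

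Eif3j1 differed by 0.12 ± 0.04, Eif3b by 0.13 ± 0.05 and Eif1a by -0.12 ± 0.04, with adjusted p of 0.328, 0.346 and 0.332. Of the members, 5 were higher in every PAS control than in every CDS control (4.3% of all genes) and 3 were lower (5.16%). The higher ones were Eif3b, Eif4h, Eif4a3, Eif1 and Eif3j1, and the lower ones Eif1ax, Eif4e and Eif1a. The lines also differed in counting run and depth. Choroid plexus markers summed to 18.5 to 53.0 CPM in CDS controls and 2.23 to 3.20 CPM in PAS controls. None of these differences can be told apart from the genotype of the line.

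**Figure D5:**
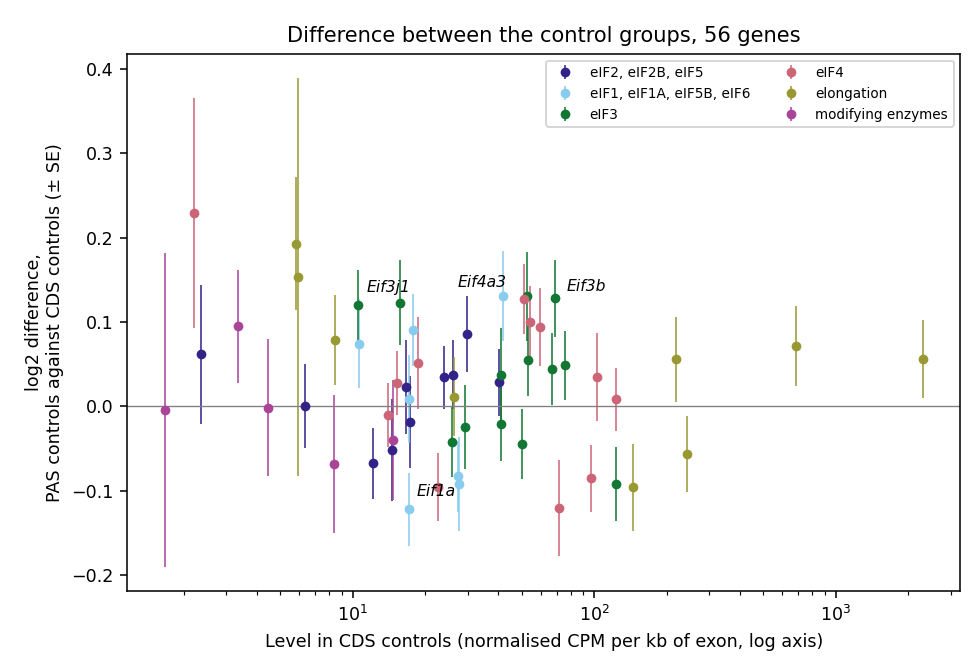
Log2 difference between PAS controls and CDS controls, ± SE, against the level in CDS controls (normalised CPM per kilobase of exon, log axis), for 56 members coloured by role. Eif4a3, Eif3j1 and Eif3b lie at 0.12 to 0.13 and Eif1a at -0.12, and none was called.

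Other translation genes outside the member rule gave no call in the knockout contrasts. Of 32 further cytoplasmic factors, among them release factors, poly(A)-binding proteins and the enzymes that make hypusine and diphthamide, 0 were called in any knockout contrast, and their median log2 change was -0.01 in each line. Of 12 mitochondrial translation factors 0 were called. Their median was -0.04 in the CDS line, with 8 of 12 negative, and 0.04 in the PAS line, with 10 of 12 positive. Of the 12 partners that the rule left out, the eIF2 kinases, eIF4E-binding proteins and eIF2 phosphatase subunits among them, 0 were called.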

How the data were processed

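RNA-seq libraries of ventricle were used, 15 in all. Raw fragment counts per gene were deposited, which the authors made with featureCounts 2.1.1 over exons of GENCODE mouse release 37 (GRCm39) without a strand option, per the file headers. The length column of the same deposited files gives exon bases, another unit used for levels per kilobase. The submitters' processing notes list HISAT2 2.2.1 and STAR 2.7.11b without saying which aligned these reads. The labels conflict on the tissue and the library kit. The titles, tissue labels and design text give heart ventricle and a kit that selects poly(A) RNA, while the extraction protocol, given for every library, speaks of neurons cultured from cortex and of ribosomal RNA depletion. The tissue labels were followed, and cardiomyocyte markers summed to at least 22866 CPM in every library. Names and gene types were matched by identifier to GENCODE release 21. Exons of 37 members overlap another gene, on the opposite strand for 33.

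Genes were kept by filterByExpr (minimum count 10) and fitted with edgeR 4.0.16 in R 4.3.3 (quasi-likelihood, robust, TMM factors 0.986 to 1.01), with a mean per group over 15 libraries and 11 residual degrees of freedom. P-values were adjusted over all 20269 genes. The biological coefficient of variation was 7.44%. Replicate pairs differed beyond sampling noise in 21 of 21 cases, with a chi-square per degree of freedom of 3.45 to 64.0, highest in the 3 pairs with CDS knockout 3. The fit was also run on simulated counts, and its recovery of changes as small as that of Eif2s2 is not given here. DESeq2 1.42.0 and limma 3.58.1 were alternatives, with other scaling, no filter, the compared groups alone, a replicate block, removal of haemoglobin and mitochondrial genes, and leaving out libraries. Named members are those called, the 4 of smallest p per contrast, the 8 of highest and 4 of lowest level, paralogue pairs, the most abundant of each role and those filtered out. Others named (Eef2k, Eif2b5, Eif2b3 and those in lists of groups that do not overlap) were chosen after their values were seen. The members, lists and tests were chosen with earlier results of these data known.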

Additional observations from a re-analysis of the deposited data

Results flagged for a closer look

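In 105 groups of 4 libraries checked among the 36 named members, 5 held a library far from the other 3, about the 1 in 20 that chance gives. Eif2s3x stood at 100.1 CPM in PAS knockout 4, with the others at 108 to 109 CPM. Eif4a2 stood at 370.4 CPM in CDS knockout 3, with the others at 390.1 to 394 CPM. Eif5a stood at 593 CPM in CDS control 1, with the others at 566 to 569 CPM. Eif3c stood at 260.3 CPM in CDS control 3, with the others at 265 to 266 CPM. Eef1akmt1 stood at 14.04 CPM in CDS knockout 2, with the others at 13.3 to 13.4 CPM.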

How the results depend on the processing

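DESeq2 called 1 member in the CDS line, Eif2s2, where edgeR called 0. In the mean of both changes, where edgeR called 1, the count was 0 without the filter on low counts, 0 with a replicate block and 0 without CDS knockouts 3 and 4, a setting chosen after seeing the data. Leaving out 1 library at a time gave 0 to 1. DESeq2 size factors, DESeq2, limma-voom and removal of haemoglobin and mitochondrial genes kept the 1 call. The cause was not tested. The replicate block changed no other call. Replicate numbers did not pair the libraries, since same-numbered knockouts and controls deviated with correlations of -0.63 to 0.24 over 10425 genes. The median change of the members in the PAS line ran from -0.0419 to 0.00238 on (log2) leaving out 1 library, and the lowest was without PAS control 3. In the PAS line, the difference and the control comparison 0 members were called under any alternative. The sign of the change was kept under every alternative by 36 of 58 members with the CDS deletion and 27 with the PAS deletion. With 3 PAS controls and SEs near 0.05, changes of a few percent were not detectable, and larger ones could be missed. The log2 change of -0.16 of Eif2s2 in the CDS line was itself not called by edgeR (adjusted p = 0.133).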
